A study of Mus musculus with 13 samples.

Results

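Complex I (NADH:ubiquinone oxidoreductase) is the entry point for electrons from NADH into the mitochondrial respiratory chain. Its matrix arm carries a flavin and a chain of iron-sulphur clusters that take electrons to ubiquinone, and its membrane arm pumps protons. Core subunits do the chemistry, accessory subunits surround and stabilize them, and assembly factors help to build the enzyme without staying in it. The membrane-arm core is encoded in the mitochondrial genome and the rest in the nucleus. Heart muscle is rich in this enzyme and depends on it for ATP.

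The genes described are the nuclear protein-coding mouse genes with a symbol that starts with Nduf, 48 of 21521 nuclear protein-coding genes listed. By their textbook roles 37 are subunits: 7 core, 9 accessory in the matrix arm, 9 in the proximal and 11 in the distal membrane arm, and the acyl carrier Ndufab1, which sits in both arms. Another 8 are assembly factors, Ndufaf1 to Ndufaf8. Ndufa4, now placed in cytochrome c oxidase, and its paralogue Ndufa4l2 carry the name without being complex I subunits. Ndufb11b, a paralogue of Ndufb11, was at 0 in every library. Ndufb1 was not analysed here. The other 46 genes (36 subunits, 8 assembly factors, Ndufa4 and Ndufa4l2) passed the filter on low counts in each comparison.

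RNA was sequenced from aortic endothelial cells (ECs) and from whole hearts of Hmox2-/- mice (KO), which carry the deletion in all cells, and of Hmox2+/+ littermates (wild type, WT), all kept in room air. There were 3 WT and 3 KO EC libraries, and 4 WT and 3 KO heart libraries. The EC RNA is what lysis reagent flushed from the aortic lumen, and the heart RNA is that of all cardiac cells together. The sequenced mice were young, and their exact age and their sex are not given in the sources used here.

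Hmox2 checked the labels. It was 76.2, 66.1 and 63.95 CPM in WT and 12.6, 13.3 and 14.8 CPM in KO ECs, and 40.8, 42.5, 37.3 and 38.75 CPM in WT and 8.91, 7.54 and 7.82 CPM in KO hearts, where CPM (normalized counts scaled to a common library size) are comparable within a tissue. Total counts were 26067147 to 31619776 in 12 libraries and 7268626 in heart WT 1, which is therefore the least precise. In EC KO 2 and EC KO 3 the Y-linked gene Ddx3y was at 1.04 and 0.92 CPM. The other 11 libraries had 37.0 to 86.5 CPM. Eif2s3y (0.46 to 0.48 CPM), Kdm5d (2.28 to 2.33 CPM) and Uty (2.68 to 3.46 CPM) were there also below all other libraries. All WT ECs were among the high libraries. In the EC comparison and the interaction, a difference in sex of these 2 KO libraries cannot be told apart from genotype. The EC libraries held RNA of other cells. All 10 endothelial markers were detected and summed to 3143 to 4586 CPM in WT and 5467 to 6722 CPM in KO ECs. White adipocyte markers summed to 6572 to 10340 CPM in WT and 6735 to 8084 CPM in KO, fibroblast markers to 3118 to 5585 CPM and 6844 to 7526 CPM, smooth muscle markers to 3398 to 6678 CPM and 1124 to 3761 CPM, brown adipocyte markers to 2721 to 4659 CPM and 2304 to 4081 CPM, erythroid markers to 2398 to 3674 CPM and 1908 to 3565 CPM, macrophage markers to 472 to 630 CPM and 820 to 1285 CPM, and cardiomyocyte markers to 138 to 544 CPM and 11.6 to 14.9 CPM. In these ECs the genotypes did not overlap for the endothelial, fibroblast, macrophage and cardiomyocyte sums. Of the 10 endothelial markers 4 were called higher and 1 lower in KO ECs (edgeR, adjusted p of at most 0.05). Of all genes tested in ECs 10% were called higher and 8.06% lower. In hearts the cardiomyocyte markers summed to 55930 to 61040 CPM in WT and 55520 to 60770 CPM in KO. These overlapping sums do not speak for each marker. Of the 12 tested, 4 were called higher and 2 lower in KO hearts. Their log2 fold changes ran from -1.53 (Ttn) to 2.92 (Myl7). Of all genes tested in hearts 17.2% were called higher and 16.2% lower. The erythroid sums, 183 to 341 CPM in WT and 887 to 1456 CPM in KO hearts, the macrophage sums, 145 to 213 CPM and 238 to 411 CPM, the endothelial sums, 522 to 629 CPM and 685 to 713 CPM, and the brown adipocyte sums, 319.7 to 384 CPM and 522 to 994 CPM, did not overlap. Of the 10 endothelial markers tested in hearts, 3 were called higher and 1 lower in KO, with a median log2 fold change of 0.15. The endothelial sum thus does not speak for each marker either. Of the 5 brown adipocyte markers tested in hearts, 1 was called higher and 2 lower in KO (edgeR, adjusted p of at most 0.05). The highest log2 fold change among them was 1.26, for the mitochondrial gene Cox7a1, so their sum does not speak for the whole list. The part of the cell types above in the results was not tested. In bulk RNA fewer cells of a type and less RNA per cell cannot be told apart.

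Promoters are printed for some genes with large heart changes that matched the RefSeq promoter table (GRCm38.p6). The distal membrane-arm subunits Ndufb2 and Ndufb8 had the largest changes of all subunits. Ndufs8 had the largest among core subunits, and Ndufaf3 the largest among assembly factors that matched. Other accessory subunits that matched are not printed. Each promoter runs from 250 bases before the start to 50 after it. Capitals mark a match, on either strand, to a motif of a factor known to drive mitochondrial genes: NRF1 (GCGCATGC), ETS factors such as GABPA (CCGGAAG), YY1 (AAGATGGC) or the estrogen-related receptors, ERR (AAGGTCA).
Ndufb2, chr6:39592315-39592614, plus strand: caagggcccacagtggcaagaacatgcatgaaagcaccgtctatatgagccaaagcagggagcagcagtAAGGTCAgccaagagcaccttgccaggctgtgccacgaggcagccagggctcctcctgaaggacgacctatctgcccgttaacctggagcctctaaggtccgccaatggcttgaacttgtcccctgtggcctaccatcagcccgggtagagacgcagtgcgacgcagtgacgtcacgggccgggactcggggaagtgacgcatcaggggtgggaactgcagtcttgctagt
Ndufb8, chr19:44555393-44555692, minus strand: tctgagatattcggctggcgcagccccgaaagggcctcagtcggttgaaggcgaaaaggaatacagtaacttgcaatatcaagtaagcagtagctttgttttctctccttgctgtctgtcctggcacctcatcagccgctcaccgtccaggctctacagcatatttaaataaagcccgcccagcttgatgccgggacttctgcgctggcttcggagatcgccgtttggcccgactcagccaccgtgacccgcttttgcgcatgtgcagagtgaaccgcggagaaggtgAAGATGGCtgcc
Ndufs8, chr19:3912725-3913024, minus strand: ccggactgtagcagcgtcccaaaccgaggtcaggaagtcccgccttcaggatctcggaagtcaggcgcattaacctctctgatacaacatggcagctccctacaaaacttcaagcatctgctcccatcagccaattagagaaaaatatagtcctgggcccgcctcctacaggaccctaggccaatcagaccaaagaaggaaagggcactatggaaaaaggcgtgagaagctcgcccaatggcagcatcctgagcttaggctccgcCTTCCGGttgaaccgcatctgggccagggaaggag
Ndufaf3, chr9:108567387-108567686, minus strand: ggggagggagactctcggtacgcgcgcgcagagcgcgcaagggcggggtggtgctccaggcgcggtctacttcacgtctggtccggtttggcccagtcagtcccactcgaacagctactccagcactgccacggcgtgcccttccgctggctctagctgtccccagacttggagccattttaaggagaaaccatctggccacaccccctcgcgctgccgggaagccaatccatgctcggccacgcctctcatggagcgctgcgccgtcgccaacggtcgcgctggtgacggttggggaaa
Ndufb2 held the ERR letters, Ndufb8 the YY1 letters and Ndufs8 the ETS letters on the opposite strand, while none of the 4 motifs was in the window of Ndufaf3. Of the 41 Nduf genes in the table, 8 held the YY1 motif, which is 19.5% against 2.75% of all 32851 promoters. The NRF1 motif was in 5 (12.2% against 2.71%), the ETS motif in 6 (14.6% against 8.86%) and the ERR motif in 3 (7.32% against 4.72%). A match is a description of letters and not a bound site.

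In KO hearts most nuclear complex I genes were higher. Of the 46 Nduf genes tested, 40 were called higher and 0 lower (edgeR, adjusted p of at most 0.05), where 17.2% of all 13816 genes tested were called higher and 16.2% lower. The 40 were 32 of 36 subunits, 6 of 8 assembly factors, Ndufa4 and Ndufa4l2. At an unadjusted p under 0.05 none was lower either, and DESeq2 called 42 higher and 0 lower, where it called 18% of all genes higher and 17.2% lower. The median log2 fold change was 0.61 for subunits and 0.60 for assembly factors, against -0.01 for all genes. Ndufb2 and Ndufb8 alone also reached a log2 fold change of 1, where 2.66% of all genes did so upward and 4.05% downward.

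**Figure D1:**
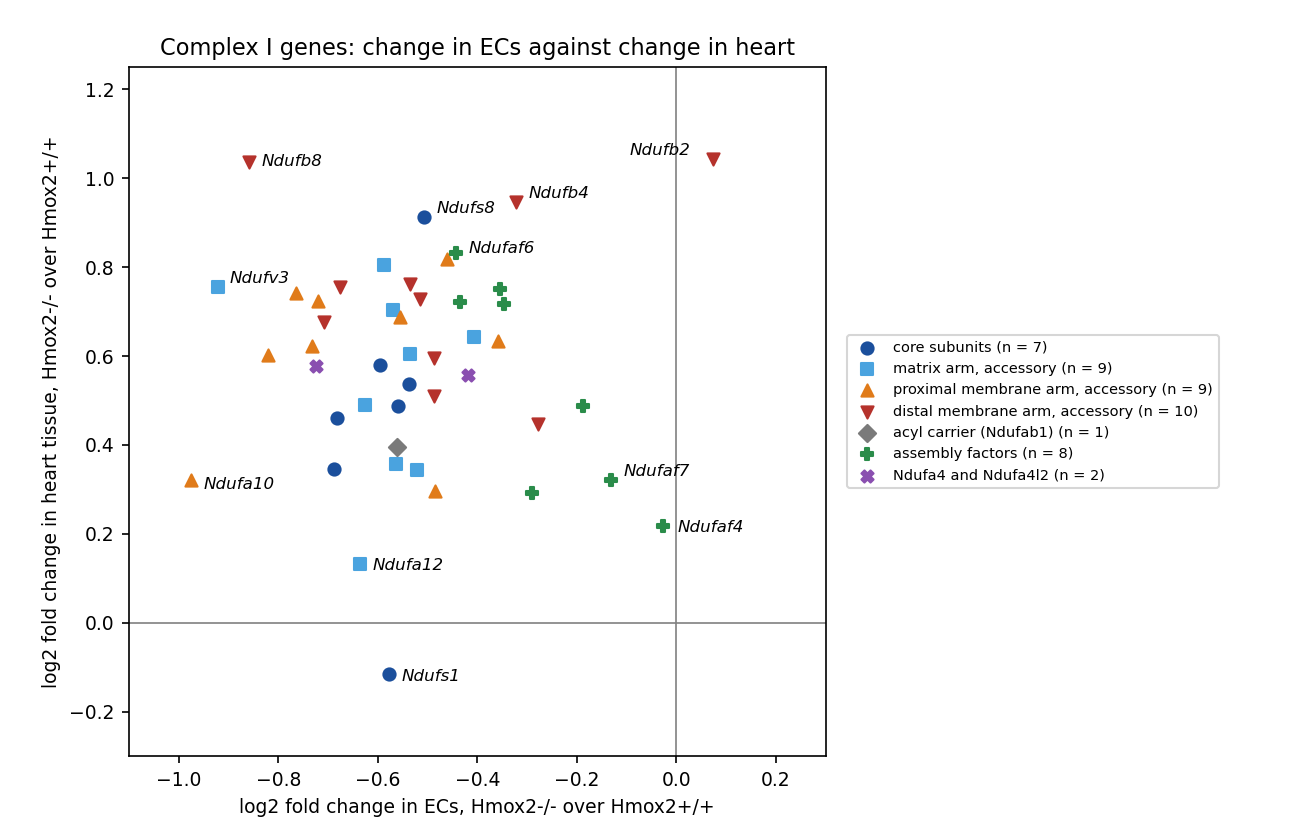
Fitted log2 fold change of KO over WT in ECs (horizontal axis) and in hearts (vertical axis), with 1 point for each of 46 genes, marked by role. In hearts 45 points lie above 0 and Ndufs1 lies at -0.12, and in ECs 45 lie below 0 and Ndufb2 lies at 0.07.

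The 7 nuclear core subunits form the electron path of the matrix arm, and 6 of them rose in KO hearts. Ndufs8 (chromosome 19, 3958862 to 3962948, minus strand, GRCm39), which holds iron-sulphur clusters near the ubiquinone site, was 138, 137.5, 133 and 134 CPM in the WT hearts and 319, 244 and 202 CPM in the KO hearts. Every KO heart lay above every WT heart (log2 fold change 0.91, SE 0.13, adjusted p = 0.000973). Ndufs7, which carries the last cluster before ubiquinone, was 207, 222, 191 and 223 CPM in WT and 330.4, 319 and 267 CPM in KO hearts (log2 fold change 0.54, SE 0.11, adjusted p = 0.00393). The groups were again apart.

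Ndufv1, the subunit that binds NADH and the flavin, was 595, 604, 562 and 606 CPM in the WT hearts and 862, 742 and 653 CPM in the KO hearts (log2 fold change 0.35, SE 0.11, adjusted p = 0.0293). Its iron-sulphur partner Ndufv2 was 328.5, 318, 325 and 358 CPM in WT and 598, 481 and 412 CPM in KO hearts (log2 fold change 0.58, SE 0.12, adjusted p = 0.00552). Ndufs3, a core subunit without a cluster of its own, was 124, 129, 137 and 135 CPM in WT and 211, 185 and 156 CPM in KO hearts (log2 fold change 0.49, SE 0.11, adjusted p = 0.0074). In all 3 the order of the KO hearts was the same, with KO 1 highest and KO 3 lowest.

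Ndufs1 (chromosome 1, 63182058 to 63216236, minus strand, GRCm39), which holds iron-sulphur clusters of the NADH-oxidizing part, was the core subunit that was not called. It was 688, 719, 759 and 716 CPM in the WT hearts and 599.7, 673 and 721 CPM in the KO hearts. The groups overlapped (log2 fold change -0.12, SE 0.10, adjusted p = 0.38), and heart KO 1, the highest KO heart for 34 of 36 subunits, was here the lowest.

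Of the 29 accessory subunits tested 26 rose in KO hearts, all 10 of the distal membrane arm (median log2 fold change 0.74), all 9 of the proximal membrane arm (median 0.63) and 7 of 9 of the matrix arm (median 0.61). For Ndufb6 of the distal arm and Ndufa1 and Ndufc2 of the proximal arm this direction turned with the offset for length and GC content given after the length classes. The core median was 0.49, and differences between the roles were not tested. Ndufb8 (chromosome 19, 44537011 to 44543939, minus strand, GRCm39), a distal membrane-arm subunit, was 424, 419, 402.5 and 442 CPM in the WT hearts and 1191, 822.5 and 583 CPM in the KO hearts (log2 fold change 1.04, SE 0.19, adjusted p = 0.0026). Ndufb2 (chromosome 6, 39569490 to 39595671, plus strand, GRCm39), of the same arm, was 76.4, 78.99, 87.9 and 92.6 CPM in WT and 242, 168 and 110.2 CPM in KO hearts (log2 fold change 1.04, SE 0.20, adjusted p = 0.00386). For both, the KO hearts lay above the WT hearts and far apart from one another. Ndufb4, also distal, was 40.1, 38.8, 39.9 and 47.8 CPM in WT and 109.7, 74.6 and 56.9 CPM in KO hearts (log2 fold change 0.95, SE 0.18, adjusted p = 0.00363). Ndufb9 was 326.5 to 338 CPM in WT and 421 to 656 CPM in KO hearts, and 43.5% of its 31-base words are shared with other genes, so its counts are less certain. Ndufs5 of the proximal arm was 44.3 to 55.9 CPM in WT and 60.5 to 108 CPM in KO hearts.

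The accessory subunits not called in hearts were Ndufa12, Ndufa5 and Ndufab1. Ndufa12 (chromosome 10, 94034582 to 94057450, plus strand, GRCm39), added late to the matrix arm, was 90.6, 127, 93.6 and 128 CPM in the WT hearts and 135.5, 119 and 108 CPM in the KO hearts. These overlapped (log2 fold change 0.13, SE 0.14, adjusted p = 0.499), and 18.9% of the 31-base words of Ndufa12 are shared with other genes. For Ndufa5 the fitted value was 0.34 (SE 0.13, adjusted p = 0.0559). Ndufab1, the acyl carrier of mitochondrial fatty acid synthesis, had 0.39 (SE 0.16, adjusted p = 0.0776), with WT hearts at 213, 215, 225 and 313 CPM, of which WT 4 stood apart.

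**Figure D2:**
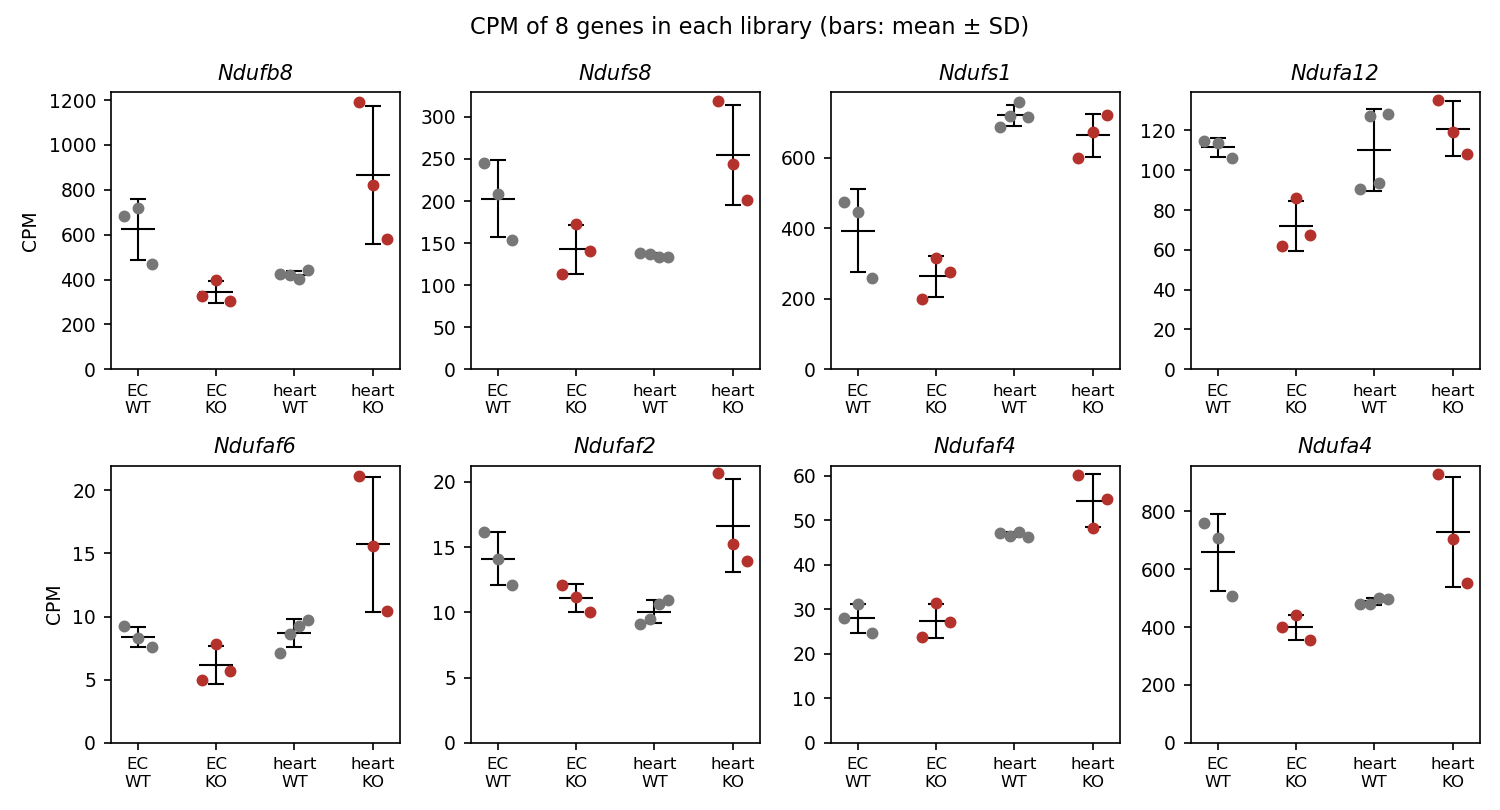
CPM of 8 genes in every library, with points for libraries and the mean and SD of each group. For Ndufb8 the KO hearts lie at 583 to 1191 CPM above WT hearts at 402 to 442 CPM, while for Ndufs1 and Ndufa12 the heart groups overlap.

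Of the 8 assembly factors 6 rose in KO hearts. Ndufaf6 was 7.14, 8.59, 9.29 and 9.735 CPM in the WT hearts and 21.15, 15.6 and 10.4 CPM in the KO hearts (log2 fold change 0.83, SE 0.21, adjusted p = 0.0111), with KO 3 just above the WT range. Ndufaf3 (chromosome 9, 108442729 to 108444642, minus strand, GRCm39), which acts early in matrix-arm assembly, was 15.5, 15.1, 15.35 and 15.4 CPM in WT and 29, 27.25 and 21.03 CPM in KO hearts (log2 fold change 0.75, SE 0.12, adjusted p = 0.0015). The WT hearts were close together and all KO hearts above them. Its partner Ndufaf4 was 47.1, 46.5, 47.4 and 46.2 CPM in WT and 60.3, 48.2 and 54.8 CPM in KO hearts. The groups did not overlap, yet the difference missed the threshold (log2 fold change 0.22, SE 0.10, adjusted p = 0.101).

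Ndufaf5, which hydroxylates Ndufs7, was 11.9, 13.99, 15.6 and 13.8 CPM in the WT hearts and 28.3, 23.4 and 17.4 CPM in the KO hearts (log2 fold change 0.72, SE 0.16, adjusted p = 0.00624). Ndufaf8, the partner of Ndufaf5, was 8.48, 9.97, 9.445 and 12.7 CPM in WT and 17.7, 16.2 and 9.48 CPM in KO hearts. Here KO 3 lay inside the WT range and the difference missed the threshold (log2 fold change 0.49, SE 0.21, adjusted p = 0.0897), and 30.5% of the words of Ndufaf8 are shared with other genes. Ndufaf2, a paralogue of Ndufa12, was 9.07, 9.52, 10.65 and 10.9 CPM in WT and 20.7, 15.25 and 13.97 CPM in KO hearts (log2 fold change 0.72, SE 0.15, adjusted p = 0.00485).

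Ndufaf1, part of the complex that assembles the membrane arm, was 37.6, 35.2, 36.3 and 34.3 CPM in the WT hearts and 43.4, 42.65 and 45.3 CPM in the KO hearts (log2 fold change 0.29, SE 0.09, adjusted p = 0.0244). Ndufaf7, an arginine methyltransferase, was 21.6, 22.85, 21.3 and 19.75 CPM in WT and 28.15, 25.75 and 26.1 CPM in KO hearts (log2 fold change 0.32, SE 0.10, adjusted p = 0.0253). These rises were small, with KO hearts that lay close together.

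Both Nduf genes outside complex I rose in KO hearts. Ndufa4 was 479, 478, 499 and 497 CPM in the WT hearts and 929.9, 703 and 553 CPM in the KO hearts (log2 fold change 0.58, SE 0.15, adjusted p = 0.0124). Ndufa4l2, known to be induced by hypoxia-inducible factors, was 6.69, 6.475, 5.37 and 5.56 CPM in WT and 11.6, 7.38 and 7.3 CPM in KO hearts (log2 fold change 0.56, SE 0.19, adjusted p = 0.0388). For Ndufa4l2 KO 2 and KO 3 lay just above the WT range.

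The size of the rise differed among the 3 KO hearts. On the log2(CPM + 0.5) scale the subunits had a median of 0.87 above the WT mean in KO 1, 0.61 in KO 2 and 0.30 in KO 3, and the assembly factors 0.84, 0.62 and 0.31, while the 4 WT hearts lay between -0.03 and 0.03 for subunits. KO 1 was the highest KO heart for 34 and KO 3 the lowest for 35 of the 36 subunits. The erythroid sums were 1456, 999 and 887 CPM and the macrophage sums 411, 264 and 238 CPM in KO 1, KO 2 and KO 3, the same order. The endothelial, smooth muscle, fibroblast, brown adipocyte and white adipocyte sums had this order too. The cardiomyocyte sums, 57140, 60770 and 55520 CPM, did not. Their part in the result was not tested. Without KO 1 the fitted subunit median was 0.48, and without KO 3 it was 0.76.

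**Figure D3:**
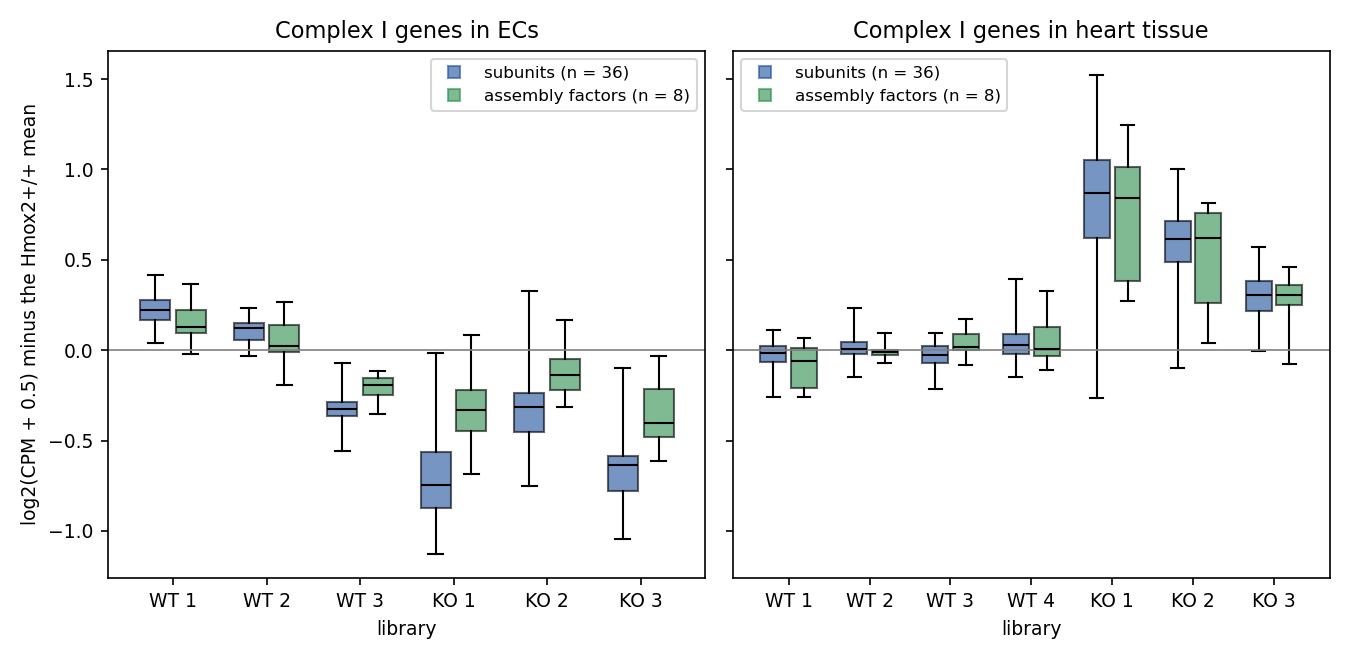
Difference of each gene from the WT mean of its tissue, on the log2(CPM + 0.5) scale, by library, for 36 subunits and 8 assembly factors, with boxes for the median and quartiles over genes and whiskers to the lowest and highest gene. The subunit medians of the KO hearts are 0.87, 0.61 and 0.30, those of the KO ECs -0.74, -0.31 and -0.64, and EC WT 3 lies at -0.33.

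Short transcripts as a class were higher in KO hearts, and Nduf genes are short. The median length of the 46 was 747 bases, against 2573 bases for all genes tested. Of the 1168 tested genes under 1000 bases 52.5% were called higher (median log2 fold change 0.55), and of the 3105 genes of 4000 bases or more 37.6% were called lower (median -0.33). The 33 Nduf genes under 1000 bases had a median of 0.68 with 87.9% called higher. The 13 longer ones had a median of 0.36 with 84.6% called higher, where genes of 1000 to 2000 bases had 0.24 and 29.6%. By library, the genes under 1000 bases had medians of 0.74, 0.50 and 0.23 in heart KO 1, KO 2 and KO 3, the order also seen for the subunits. Ndufs1, the longest of the 46 at 2577 bases, had the only fitted value below 0. Across the 46 genes Spearman's rho of heart change with length was -0.43, and across all genes -0.51, given as a description since genes of the same libraries are not independent.

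With an offset for length and GC content in the heart fit, 13 of the 46 genes were called higher and 2 lower, where 16.2% of all genes were called higher and 10.7% lower in the same fit. Those higher included the core subunits Ndufs8 (0.44) and Ndufv2 (0.49), the membrane-arm subunits Ndufb4 (0.54) and Ndufb8 (0.47), and the assembly factors Ndufaf5 (0.48), Ndufaf3 (0.47) and Ndufaf4 (0.40). Ndufa12 (-0.44) and Ndufa5 (-0.28) were lower, and Ndufb2 was not called (0.33). Ndufa1 (-0.10), Ndufb6 (-0.05) and Ndufc2 (-0.18), called higher without the offset, had values below 0 with it and were not called. The median was 0.14 for subunits and 0.30 for assembly factors, against 0.05 for all genes.

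**Figure D4:**
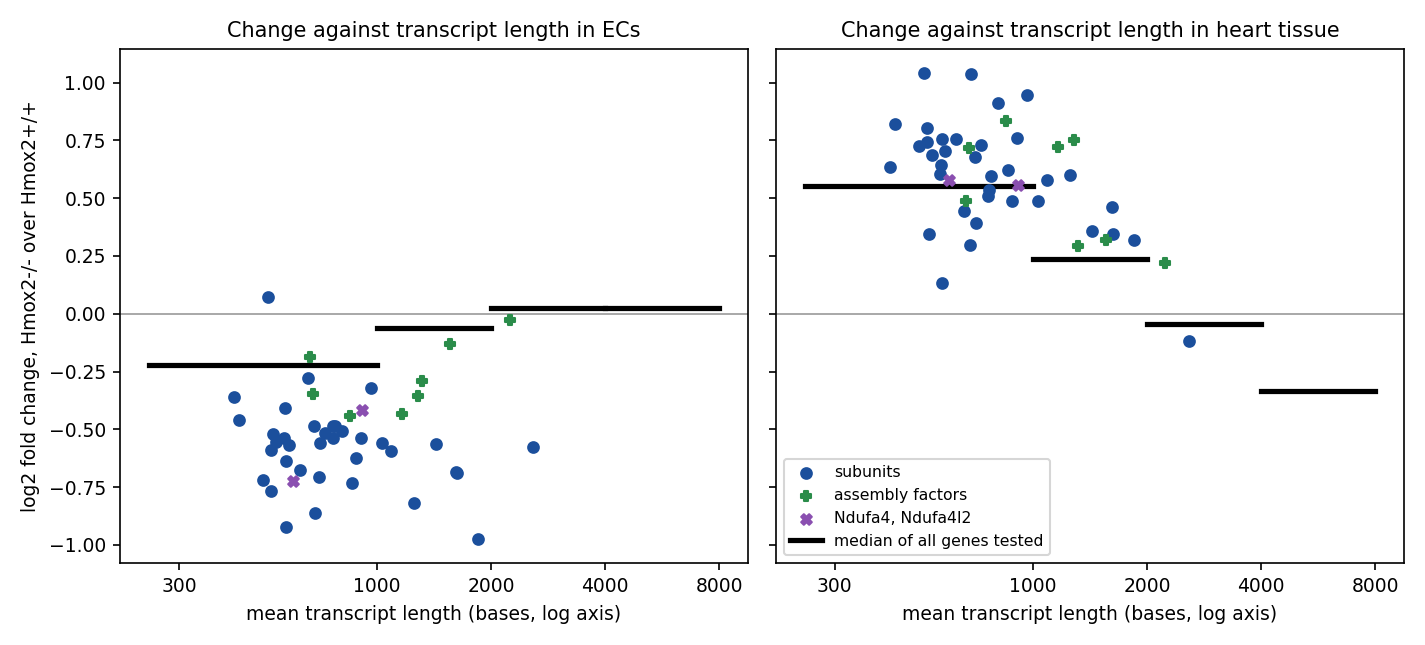
Log2 fold change of KO over WT against transcript length in bases (log axis) for the 46 genes, in ECs and in hearts, with the median of all genes tested in each of 4 length classes. In hearts the medians of all genes go from 0.55 under 1000 bases to -0.33 at 4000 bases or more, and in ECs from -0.22 to 0.03.

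In KO ECs complex I genes were lower, with fewer calls than in hearts. Of the 46 Nduf genes tested, 13 were called lower and 0 higher, where 8.06% of all 15301 genes tested were called lower and 10% higher. None was higher at an unadjusted p under 0.05 by edgeR, and 34 were lower at that level. For counts at an unadjusted p, here and below, the share of all genes is not given, so they do not show an excess. DESeq2 called 24 lower and 0 higher, where it called 12.7% of all genes lower and 13.7% higher. The median log2 fold change was -0.56 for subunits and -0.32 for assembly factors, against -0.02 for all genes. None of the 46 reached an absolute log2 fold change of 1 with a call by edgeR or DESeq2, also not at an unadjusted p under 0.05 (0 of 46), where 5.39% of all genes did so upward and 3.89% downward.

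The genes called lower in KO ECs were 12 accessory subunits and Ndufa4. In the matrix arm they were Ndufa6, Ndufa7, Ndufa12, Ndufs4 and Ndufv3, in the proximal membrane arm Ndufa3, Ndufa8, Ndufa10, Ndufa13 and Ndufs5, and in the distal membrane arm Ndufb8 and Ndufb9. Ndufa10, a subunit with a nucleoside kinase fold, was 599, 560.1 and 361 CPM in the WT ECs and 226, 294 and 252 CPM in the KO ECs (log2 fold change -0.98, SE 0.22, adjusted p = 0.025). Ndufv3, an accessory subunit next to Ndufv1 and Ndufv2, was 307, 295 and 210.4 CPM in WT and 139.6, 159.7 and 129 CPM in KO ECs (log2 fold change -0.92, SE 0.18, adjusted p = 0.0156). Neither overlapped between the genotypes. Ndufb8 was 684, 719 and 468 CPM in WT and 329, 399 and 302 CPM in KO ECs (log2 fold change -0.86, SE 0.21, adjusted p = 0.0314). Ndufs5 was 62.5, 59.9 and 48.1 CPM in WT and 30.6, 39.01 and 30.7 CPM in KO ECs (log2 fold change -0.76, SE 0.15, adjusted p = 0.0174). Ndufa4 was 760.4, 708 and 508 CPM in WT and 399.8, 441.5 and 355 CPM in KO ECs (log2 fold change -0.73, SE 0.20, adjusted p = 0.0418). In each of these EC WT 3 was the WT library closest to the KO libraries.

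No core subunit was called in ECs by edgeR, although 6 of 7 had an unadjusted p under 0.05 and DESeq2 called 3. Their fitted values ran from -0.69 (Ndufv1) to -0.51 (Ndufs8), with a median of -0.58. Ndufv1 was 649, 607 and 377.5 CPM in the WT ECs and 301, 369.5 and 343 CPM in the KO ECs, the only core subunit without overlap (log2 fold change -0.69, SE 0.22, adjusted p = 0.0706). Ndufs1 was 476, 447 and 258 CPM in WT and 199, 316 and 276 CPM in KO ECs, where WT 3 lay inside the KO range (log2 fold change -0.58, SE 0.27, adjusted p = 0.17). Ndufs8 was 245, 208 and 154 CPM in WT and 114, 172.5 and 141 CPM in KO ECs. Here too the overlap was between WT 3 and KO 2. WT 3 was the lowest WT library for all 36 subunits and KO 2 the highest KO library for 35.

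No assembly factor was called in ECs by edgeR or DESeq2, and 1 of 8, Ndufaf1, had an unadjusted p under 0.05. Ndufaf1 was 37.4, 35.4 and 30.7 CPM in the WT ECs and 25.9, 29.4 and 29.35 CPM in the KO ECs (log2 fold change -0.29, SE 0.12, adjusted p = 0.13), the only assembly factor without overlap. Ndufaf6 was 9.23, 8.29 and 7.602 CPM in WT and 4.99, 7.82 and 5.665 CPM in KO ECs (log2 fold change -0.44, SE 0.22, adjusted p = 0.185). Ndufaf4 was 28.1, 31.2 and 24.6 CPM in WT and 23.7, 31.3 and 27.2 CPM in KO ECs, which overlapped widely (log2 fold change -0.03, SE 0.15, adjusted p = 0.908). The others had log2 fold changes of -0.43 (Ndufaf5), -0.35 (Ndufaf3), -0.35 (Ndufaf2), -0.19 (Ndufaf8) and -0.13 (Ndufaf7). Ndufb2, the only gene with a fitted value above 0, was 86.6, 73.2 and 66.2 CPM in WT and 74.02, 94.1 and 69.9 CPM in KO ECs (log2 fold change 0.07, SE 0.16, adjusted p = 0.762). Ndufa4l2 was 10.6, 10.2 and 14.4 CPM in WT and 8.465, 9.46 and 8.42 CPM in KO ECs (log2 fold change -0.42, SE 0.18, adjusted p = 0.139), without overlap.

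The number of EC calls rested on single libraries, and the direction of the medians did not. Without EC WT 3 29 genes were called lower, and without EC WT 1, WT 2, KO 1, KO 2 or KO 3 the numbers were 1, 3, 1, 6 and 0. The share of all genes called in each of these fits is not given, so a change common to all genes cannot be told apart. The subunit median stayed between -0.72 and -0.44 in these fits. Without the KO libraries low in Y-linked RNA, which leaves KO 1 as the only KO library and assumes that it varies like the WT libraries, no gene was called and the subunit median was -0.76. With the offset for length and GC content 4 genes were called lower, Ndufv2 (-1.0), Ndufa10 (-0.84), Ndufaf4 (-0.68) and Ndufs4 (-0.59), and Ndufb2 was called higher (0.81), where 9.14% of all genes were called lower and 8.56% higher in the same fit. Ndufa6 (0.04) and Ndufa7 (0.13), called lower without the offset, had values above 0 with it. The median was -0.18 for subunits and -0.17 for assembly factors, against -0.04 for all genes. The brown adipocyte sums, from a list that holds the mitochondrial gene Cox7a1, were 4659, 3731 and 2721 CPM in WT and 2304, 4081 and 3626 CPM in KO ECs. EC WT 3 was thus the lowest WT library and EC KO 2 the highest KO library there too. None of the other marker sums had both. Of the 7 brown adipocyte markers 4 had log2 fold changes above 0 in KO ECs and 3 below 0, so their sum does not speak for the list. The part of these cells in the results was not tested.

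The genotype effect differed between the tissues for 42 of 46 genes, tested as the interaction of tissue and genotype over all 13 libraries. All 42 were higher in heart, where 16.2% of all 15938 genes tested were called in that direction. The median difference was 1.20 for subunits and 0.91 for assembly factors on the log2 scale. Ndufb8 had the largest, 1.93 (SE 0.31, adjusted p = 0.000826), and Ndufv3 had 1.72 (SE 0.25, adjusted p = 0.000476). The genes not called were Ndufs1 at 0.50 (SE 0.29, adjusted p = 0.213), Ndufaf4 at 0.29 (SE 0.17, adjusted p = 0.221), Ndufaf7 at 0.49 (SE 0.19, adjusted p = 0.0608) and Ndufaf8 at 0.72 (SE 0.31, adjusted p = 0.0975). With the offset for length and GC content 19 genes were called higher in heart, where 17.1% of all genes were. Spearman's rho between the EC and the heart change was 0.09 across 36 subunits, given as a description of genes measured in shared libraries.

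Subunits were set against assembly factors as the difference of their mean log2(CPM + 0.5) in each library. In ECs it was 3.34, 3.34 and 3.16 in WT and 2.92, 3.05 and 2.97 in KO, with means of 3.28 ± 0.10 and 2.98 ± 0.07 (SD, n = 3 each). The EC groups did not overlap, with fitted medians of -0.56 for subunits and -0.32 for assembly factors. With the offset for length and GC content these medians were -0.18 and -0.17, close to each other. In hearts it was 3.36, 3.30, 3.22 and 3.28 in WT and 3.38, 3.36 and 3.29 in KO, with means of 3.29 ± 0.06 (n = 4) and 3.35 ± 0.05 (n = 3). The heart groups overlapped, with fitted medians of 0.61 for subunits and 0.60 for assembly factors, which were 0.14 and 0.30 with the offset. No p is given for these scores, since the genes were chosen with results of these data known.

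Complex I assembly factors with other names also had values above 0 in hearts. Of 12 on the list 11 were tested, and 7 were called higher in KO hearts, where 17.2% of all genes were. The median log2 fold change was 0.30, against 0.60 for the Ndufaf genes. Values with the offset for length and GC content are not given for this list. Ecsit, a partner of Ndufaf1, was 67.4, 67.7, 60.5 and 63.75 CPM in WT and 97.1, 95.7 and 84.3 CPM in KO hearts (log2 fold change 0.51, SE 0.09, adjusted p = 0.0026). Dmac1, which acts on the distal membrane arm, had 0.55 (SE 0.12, adjusted p = 0.00548), and Timmdc1, which acts on the membrane arm, had 0.46 (SE 0.11, adjusted p = 0.01). Acad9, another partner of Ndufaf1, was at 0.01 (SE 0.09, adjusted p = 0.936). In ECs 0 of 11 were called by edgeR and 1 was called lower by DESeq2, with 1 at an unadjusted p under 0.05 and a median of -0.24. Of all genes edgeR called 8.06% lower and DESeq2 12.7%.

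The mitochondrially encoded subunits went the other way in hearts. All 7 were called lower in KO hearts, where 16.2% of all genes were, with a median log2 fold change of -1.59. mt-Nd4, a proton-pumping subunit, was 44240, 36620, 52560 and 51400 CPM in the WT hearts and 11350, 16080 and 16240 CPM in the KO hearts (log2 fold change -1.67, SE 0.16, adjusted p = 5.68e-05). The change ran from -1.85 (mt-Nd3) to -0.61 (mt-Nd1). All mitochondrially encoded genes together took 37.6% to 44.3% of the counts in WT and 22.5% to 27.2% in KO hearts. In ECs 0 of 7 were called by edgeR and 1 by DESeq2, with 1 at an unadjusted p under 0.05 and a median of 0.15. Leaving the mitochondrially encoded genes out before normalization gave the same 40 nuclear genes higher in hearts and the same 13 lower in ECs. The libraries were primed with oligo-dT, and its part in the mitochondrial values was not tested.

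Of 17 regulators of mitochondrial gene expression 2 rose and 3 fell in KO hearts, shares near the 17.2% of all genes called higher and 16.2% called lower. Esrra, a receptor that drives oxidative genes, was 95.3, 92.1, 89.4 and 92.7 CPM in WT and 139.7, 117 and 100.1 CPM in KO hearts (log2 fold change 0.36, SE 0.11, adjusted p = 0.0284). In ECs Esrra went down, from 74.4, 74.1 and 49.9 CPM in WT to 39.7, 47.1 and 41.03 CPM in KO (log2 fold change -0.63, SE 0.17, adjusted p = 0.043), and its interaction was 1.04 (SE 0.21, adjusted p = 0.00305). Tfam, which packages mitochondrial DNA, rose in hearts by 0.27 (SE 0.09, adjusted p = 0.0426). Gabpa had -0.41, Esrrg -0.51 and the coactivator Ppargc1b -0.73 in hearts, all called lower. In ECs Ppargc1b (-1.54) and Ppara (-1.88) were also called lower, and Ppargc1a and Nrf1 were called in neither tissue.

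By TPM (a transcript level corrected for length) every subunit measured stood above every assembly factor in all 4 groups. In WT hearts the subunit means ran from 48.4 ± 4.81 TPM (SD, n = 4) for Ndufb4 to 767 ± 75.8 TPM for Ndufb8, with a median of 279 TPM. In WT ECs they ran from 90.3 ± 7.896 TPM (n = 3) to 1286 ± 284 TPM for the same genes, with a median of 365 TPM. Ndufs5 was second lowest in both, and Ndufb9 second highest. Among assembly factors Ndufaf1 led in WT hearts with 29.4 ± 3.68 TPM, above the range of Ndufaf4 at 19 ± 1.655 TPM. Ndufaf4, Ndufaf8 and Ndufaf2 overlapped there, as did the lower set of Ndufaf7, Ndufaf5, Ndufaf3 and Ndufaf6, which ended at 11.5 ± 2.15 TPM. In WT ECs Ndufaf8 led with 40.1 ± 1.42 TPM. Ndufa4 stood above all subunits, with 1038 ± 71.9 TPM in WT hearts and 1635 ± 239 TPM in WT ECs, and Ndufa4l2 had 7.63 ± 0.995 TPM and 16.8 ± 5.16 TPM. TPM moves with the share of mitochondrially encoded RNA, so genotypes are compared here by CPM.

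Ndufv3 makes a long and a short transcript, and ECs and hearts used them differently. The long transcript, Ndufv3-201 (1582 bases), took 19.4%, 15.2% and 15.45% of Ndufv3 TPM in the WT ECs and 14.9%, 14.4% and 15.4% in the KO ECs. In hearts it took 1.445%, 1.79%, 1.47% and 1.502% in WT and 0.949%, 1.44% and 1.498% in KO. All EC libraries lay above all heart libraries, and most of the rest was the short Ndufv3-202 (493 bases). Between WT ECs and WT hearts the two-sided exact permutation p was 0.0571, the smallest that 3 against 4 allows (adjusted p = 0.2 over 4 comparisons by the exact permutation test). Between genotypes the exact permutation p was 0.2 in ECs and 0.229 in hearts.

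**Figure D5:**
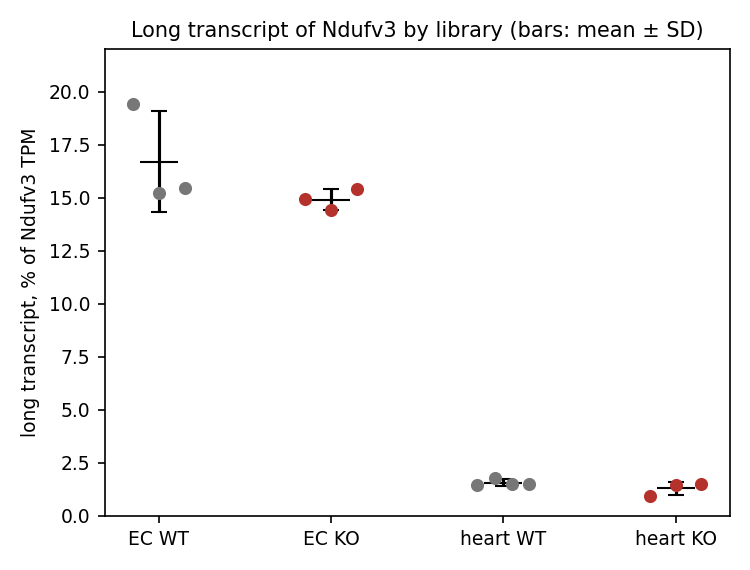
Share of Ndufv3 TPM in the long transcript Ndufv3-201, in percent, by library (points) with the mean and SD of each group. The EC libraries lie at 14.4% to 19.4% and the heart libraries at 0.949% to 1.79%.

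The most abundant transcript differed between WT tissues for Ndufs4 and, by the group mean, for Ndufb5. Ndufs4 is an accessory subunit of the matrix arm. Ndufs4-204 took 52.4% to 58.2% of its TPM in WT hearts and 21.96% to 28.8% in WT ECs, where Ndufs4-202 took 45.2% to 48.7%. Both are annotated as targets of nonsense-mediated decay. The longest Ndufs4 transcript, the protein-coding Ndufs4-201 (1698 bases), took 30.4% to 35.6% in WT and 16.8% to 29.75% in KO hearts, but 14.4% to 18.2% in WT and 25.1% to 30.96% in KO ECs. Its share was thus lower in KO hearts and higher in KO ECs, without overlap in either tissue. Its level was 50.1 to 60.1 TPM in WT and 70.3 to 82.0 TPM in KO hearts, and in ECs the levels of the genotypes overlapped. TPM moves with the share of mitochondrially encoded RNA, which was lower in KO hearts. The TPM values of Ndufs4-201 therefore do not show whether its level rose there.

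For Ndufb5, a distal membrane-arm subunit, the leading protein-coding transcripts were Ndufb5-204 (1079 bases) and Ndufb5-203 (625 bases). Ndufb5-204 took 23.3% to 25.8% in WT and 37.8% to 46.5% in KO ECs, and 34.8% to 46.8% in WT and 30.4% to 36.85% in KO hearts. Ndufb5-203 took 44.1% to 50.02% in WT and 27.2% to 33.3% in KO ECs, and 28.98% to 38.3% in WT and 42.1% to 52.5% in KO hearts. Ndufb5-203 led in every WT EC library and in heart WT 1 and WT 3, and Ndufb5-204 in heart WT 2 and WT 4. In ECs the groups did not overlap for either transcript, and in hearts they overlapped for Ndufb5-204 alone. These shares were not tested, and kallisto estimates them from reads that most transcripts of a gene share. Genes under 1000 bases had a median log2 fold change of 0.55 in hearts and -0.22 in ECs. The part of transcript length in the shares of Ndufs4 and Ndufb5 was not tested.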

How the data were processed

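RNA of 13 libraries (ECs and hearts, Hmox2+/+ and Hmox2-/-) was sequenced as stranded, oligo-dT-primed paired ends. The authors quantified transcripts with kallisto (version 0.44.0 in the submitters' processing notes). The methods name a GENCODE M32 index on GRCm39, while the processing notes name other builds. The deposited files hold estimated counts, TPM values and other columns with transcript and effective lengths, which were not normalized between libraries. Default kallisto does not use strand, and 24 of the genes overlap a listed gene on the opposite strand. Of 118489 transcripts 97.2% were matched by stable identifier to GENCODE M39 genes, and estimated counts and TPM were summed per gene. Words of 31 bases shared with other genes, where reads cannot be told apart, reached at least 20% in 8 genes (Ndufa13, Ndufb6, Ndufb9, Ndufb11, Ndufb11b, Ndufs3, Ndufs7 and Ndufaf8), whose counts are less certain.

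Summed counts were rounded, filtered (filterByExpr, minimum count 10), TMM-normalized and tested with edgeR's quasi-likelihood F-test (edgeR 4.0.16, R 4.3.3) in each tissue and, for the interaction, over all libraries. P-values were adjusted by Benjamini-Hochberg over all genes tested, with calls at 0.05. No label links the EC and heart libraries of a mouse, so these were taken as independent, and p-values measure the spread between libraries. Biological variation between libraries, as edgeR's coefficient, came to 0.241 (ECs) and 0.149 (hearts). Alternatives included DESeq2 (1.42.0), other normalizations and filters, length-scaled TPM, a length and GC offset, and dropping each library in turn. Leaving out EC KO 2 and KO 3 was added after seeing the data. The fits were tested on simulated counts. Figures were drawn with matplotlib 3.10.9.

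Values in every library were given for core subunits, assembly factors, Ndufa4, Ndufa4l2, the 3 largest changes in each direction per tissue and the extremes of subunit TPM, with ranges or fitted values where space required. The values of 1 gene are not reported here. Other genes came from lists of regulators, assembly factors and cell type markers. Genes, roles, lists and motifs were chosen with earlier results of these data known.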

Additional observations from a re-analysis of the deposited data

Results flagged for a closer look

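The genotype effect differed between hearts and ECs for 42 of the 46 genes, by the interaction test itself (edgeR, adjusted p of at most 0.05). Positive values mean a higher effect in hearts, on the log2 scale. Among accessory subunits the difference was 1.93 for Ndufb8, 1.72 for Ndufv3, 1.55 for Ndufs5, 1.42 for Ndufb9, 1.34 for Ndufa10, 1.31 for Ndufb4, 1.01 for Ndufb2 and 0.81 for Ndufa12. Among core subunits it was 1.46 for Ndufs8, 1.22 for Ndufv2, 1.11 for Ndufs7, 1.09 for Ndufs3 and 1.07 for Ndufv1. The assembly factors had 1.32 (Ndufaf6), 1.20 (Ndufaf5), 1.14 (Ndufaf3), 1.10 (Ndufaf2) and 0.62 (Ndufaf1). Ndufa4 had 1.34 and Ndufa4l2 had 1.01.

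Among the 4 WT hearts, 1 library stood far from the others for 2 of the 46 genes by Dixon's test at its 95% limit. The gap was 0.876 of the whole range for Ndufab1 and 0.854 for Ndufb4, and WT 4 was the highest in both. Chance gives this in about 1 group in 20.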

How the results depend on the processing

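Of 1620 values of 45 genes under the alternatives, 1582 kept their direction and 38 reversed, 30 of these with the length and GC offset. The number of EC genes called lower, 13, was 24 with DESeq2, 33 with all libraries in 1 fit, 4 with the length and GC offset, 3 with the offset and a replicate block, 0 where a 2-fold change was also required, 0 at an adjusted p of at most 0.01, and 0 without EC KO 2 and KO 3 (chosen after seeing the data). Leaving out a library at a time gave 0 to 29. The EC subunit median was -0.181 with the offset and -0.178 with offset and block. The number of heart genes called higher, 40, was 13 with the offset, 8 with offset and block, and 2 where a 2-fold change was also required. The heart subunit median was 0.138 and 0.183, and the assembly factor median 0.298 and 0.337, with the offset and with offset and block. The interaction calls, 42, fell to 19 and 11. The offset moved the median of all genes in the interaction to 0.126. Shares of all genes called, given above for DESeq2, the offset and the 2-fold rule, are not given for the other alternatives.

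Replicate numbers were not taken as pairs. The deviations of same-numbered WT and KO libraries from their group means correlated at 0.181, 0.04 and 0.0872 in ECs. In hearts they correlated at -0.0335, 0.0772 and 0.037. Libraries with different numbers were not compared in this way, so a pairing is not excluded. The replicate block alone gave 14 EC, 31 heart and 42 interaction calls.

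Of the reversed values 10 were of genes called without the offset. With the offset and with offset and block, these were in ECs Ndufa6 (0.043 and 0.043) and Ndufa7 (0.131 and 0.149), with Ndufa3 at 0.002 under both together, and in hearts Ndufa1 (-0.101 and -0.057) and Ndufc2 (-0.183 and -0.099), with Ndufb6 at -0.051 under the offset alone. None of these was called after reversal. In hearts 2 values were called lower only with the offset, Ndufa12 (-0.438, and -0.290 with the block) and Ndufa5 (-0.279, and -0.232 with the block). The other reversals with the offset, and with offset and block, were of genes not called. In ECs they were Ndufa1 (0.432 and 0.437), Ndufa2 (0.188 and 0.202), Ndufa5 (0.028 and 0.032), Ndufa11 (0.155 and 0.135), Ndufb6 (0.044 and 0.046), Ndufc1 (0.276 and 0.294) and Ndufaf8 (0.328 and 0.346), and in hearts, with the offset alone, Ndufab1 (-0.023) and Ndufaf8 (-0.086). Ndufaf4 in ECs was 0.041 with upper-quartile normalization, 0.057 without EC WT 2 and 0.068 without EC KO 1 (-0.133 to 0.068 over libraries left out), and Ndufaf7 was 0.016 without EC WT 2 (-0.252 to 0.016). Ndufb2 in ECs was -0.020 without EC KO 2 and KO 3, -0.014 without EC WT 3 and -0.066 without EC KO 2 (-0.066 to 0.187), and Ndufaf8 was 0.077 without EC KO 2 and KO 3. Apart from fits with fewer libraries or stricter thresholds, the cause was not tested. With 3 or 4 libraries a group, EC differences of the size seen here lay near the threshold.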
